A study of Mus musculus with 6 samples.

Results

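The 55 genes described here build and control mitosis: spindle checkpoint kinases and their partners, the chromosomal passenger complex, mitotic kinases and cyclins, the anaphase-promoting complex activators and separase, kinetochore proteins, spindle motors, cytokinesis proteins, and condensin and chromosome proteins. They were picked by symbol for their known roles, with earlier results of these data known, and all 55 were found among the 21878 genes of the deposited tables. The libraries came from mouse Achilles tendon, 3 labelled sham and 3 labelled Achilles tendon amputation, here named sham 1 to 3 and cut 1 to 3, the numbers being those of their titles. In the titles the sham libraries are called Control and the cut libraries HO. The series title places them in a study of KLF2 and PPARγ in heterotopic ossification, the growth of bone in soft tissue after injury. Strain, age, sex, the time from surgery to sampling and any genetic change are not given in the labels. Nor do the labels say whether replicates were separate animals, so the p-values refer to the spread among these libraries alone, part or all of which may be technical.

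In dividing cells, the spindle pulls sister chromatids apart once kinetochores, the protein plates on the centromeres, are all attached to microtubules. The spindle checkpoint holds the anaphase-promoting complex (APC/C) in check until then, and the chromosomal passenger complex corrects wrong attachments. Most genes of this machinery are transcribed in the late part of the cell cycle and are at low level in resting tissue such as adult tendon, where few cells divide.

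Library totals ran from 23916839 to 31346730 counts, so 1 count was worth 0.0319 to 0.0418 CPM, the unit of counts scaled to library size. Levels are given as CPM normalized by the TMM method, and 14561 genes passed the filter on low counts. Cut 3 stood apart from cut 1 and 2: the summed level of 20 skeletal muscle markers was 168779, 164951 and 188941 CPM in sham 1 to 3, 12352 and 4512 CPM in cut 1 and 2, and 134630 CPM in cut 3, and 0 of the 20 were called. Fits with this muscle level as a covariate are named below. As the muscle level separated sham from cut tendon except for cut 3, the folds of those fits rest largely on cut 3. The tendon markers Tnmd and Scx were detected in all 6 libraries and called higher in cut tendon.

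Most promoters of the mitotic genes held the letters of a known cell cycle element. The cell cycle genes homology region (CHR), read here as TTTGAA or TTCGAA, is bound by MuvB protein complexes, and CCAAT boxes are bound by NF-Y. Both elements are textbook features of genes switched on for mitosis. RefSeq promoter windows of GRCm38.p6, from 250 bases before to 50 after the annotated start, were available for 48 of the 55 genes and were searched on both strands. For some genes, among them Pttg1, Kif2c, Cit and Aurka, the whole window lay inside the annotated span of the gene. Starts further upstream in these genes were not searched. A CHR and a CCAAT match can share an end letter, which happened once, in Cdca8. CHR letters stood in the windows of 36 of 48 genes (75%), against 20.2% of 17491 protein-coding genes in the same table. Within 50 bases of the start they stood in 32 of 48 (66.7%), against 5.08%. CCAAT letters stood in 33 (68.8%, against 42.3%), at least 2 of them in 23 (47.9%, against 14.6%), and both motifs in 31 (64.6%, against 9.24%). Aurkb, Ccna2, Incenp, Kif20a, Smc4, Spc24 and Tpx2 were not matched in the table. A letter match describes the sequence and does not show that a factor binds there. Other letter forms of the CHR were not searched, so a window without these letters may still hold the element.

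The following windows run 5′ to 3′ from 120 bases before to 30 after the start, with CHR and CCAAT letters of either strand in capitals. Ccnb2 (chr9:70421525-70421674, minus strand), Cdc20 (chr4:118437314-118437463, minus strand), Cdk1 (chr10:69352883-69353032, minus strand), Plk1 (chr7:122159315-122159464, plus strand) and Ccnb1 (chr13:100786457-100786606, minus strand) are shown because their cell cycle elements are well known. Mad2l1 (chr6:66535101-66535250, plus strand) and Kif18a (chr2:109280618-109280767, plus strand) were picked as a contrast after their values were seen.
Ccnb2: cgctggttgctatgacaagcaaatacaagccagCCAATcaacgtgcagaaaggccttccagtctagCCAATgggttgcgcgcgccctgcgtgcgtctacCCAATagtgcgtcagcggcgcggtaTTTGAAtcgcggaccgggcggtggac
Cdc20: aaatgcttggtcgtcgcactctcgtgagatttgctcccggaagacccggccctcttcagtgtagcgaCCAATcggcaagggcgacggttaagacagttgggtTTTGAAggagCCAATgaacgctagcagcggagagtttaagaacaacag
Cdk1: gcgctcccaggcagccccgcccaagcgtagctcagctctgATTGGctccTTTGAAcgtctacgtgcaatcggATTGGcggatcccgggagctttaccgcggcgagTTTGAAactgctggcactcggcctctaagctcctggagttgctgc
Plk1: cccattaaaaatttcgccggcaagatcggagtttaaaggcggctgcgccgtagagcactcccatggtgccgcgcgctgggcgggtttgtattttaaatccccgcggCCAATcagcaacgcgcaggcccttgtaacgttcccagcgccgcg
Ccnb1: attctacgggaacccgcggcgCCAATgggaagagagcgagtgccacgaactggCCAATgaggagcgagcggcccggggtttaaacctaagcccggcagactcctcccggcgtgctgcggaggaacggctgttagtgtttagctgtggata
Mad2l1: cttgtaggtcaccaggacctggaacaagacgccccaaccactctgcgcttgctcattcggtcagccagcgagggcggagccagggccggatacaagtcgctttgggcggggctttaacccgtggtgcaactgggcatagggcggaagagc
Kif18a: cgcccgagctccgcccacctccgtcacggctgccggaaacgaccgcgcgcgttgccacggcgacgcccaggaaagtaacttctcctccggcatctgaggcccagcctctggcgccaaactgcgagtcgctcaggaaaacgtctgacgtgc
In Ccnb2 the CHR letters began 5 bases into the transcript, with 3 CCAAT matches before them at -87, -54 and -21. Cdc20 carried CHR letters at -18 and Cdk1 at -71 and -15. In Plk1 they began at 31, just past the printed end. The Ccnb1 window held CCAAT at -99 and -67 and no CHR letters, and those of Mad2l1 and Kif18a held neither motif.

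**Figure D1:**
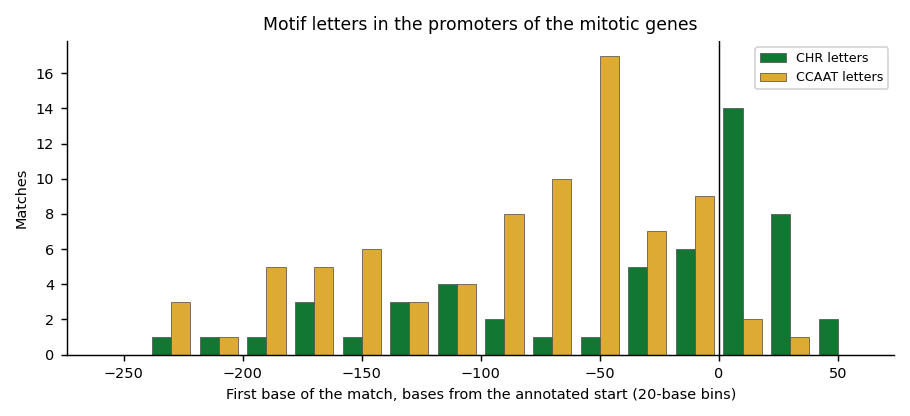
Histogram of motif matches in the 51 promoter windows of 48 mitotic genes (3 genes have more than 1 window), by the position of the first base of the match relative to the annotated start (20-base bins, x axis) and number of matches (y axis). Of 53 CHR matches, 33 began within 40 bases of the start, whereas of 81 CCAAT matches 35 began 100 to 40 bases before it.

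Cut tendon was set against sham tendon to see which of these genes differed after injury. Of the 55 genes, 49 were higher in cut tendon, 0 were lower and 6 were not called (quasi-likelihood test of edgeR, Benjamini-Hochberg adjustment across the tested genes, adjusted p under 0.05). Among all 14561 tested genes 20.4% were called higher and 12.3% lower. The median log2 fold change was 2.36 over the 55 genes and -0.02 over all tested genes. Called genes ranged from log2 0.43 to 3.67, or 1.34-fold to 12.7-fold, with adjusted p from 0.00272 to 0.0427. Of them, 47 were at least 2-fold, 37 at least 4-fold and 11 at least 8-fold higher. A call with at least a 4-fold increase was met by 4.49% of all tested genes. All 3 cut libraries lay above all 3 sham libraries for 51 of the 55, against 28.7% of all tested genes. In bulk tissue, more dividing cells and more RNA of these genes per cell cannot be told apart.

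All 55 genes passed the filter on low counts, which asked for 3 libraries at or above a cutoff of 0.36 CPM. For 18 of them not all 3 sham libraries reached it, so at least 1 cut library was needed to pass. For these genes passing depended in part on the libraries in which most of them were higher. Spc24, which was not called, was also among the 18. With no filter 48 were called higher (15.3% of all genes with a count). The 25 genes with a sham mean under 1 CPM had a median log2 fold change of 2.78, the 23 between 1 and 5 CPM one of 2.02, and the 7 at 5 CPM or more one of 1.11. Of these, 24, 19 and 6 were called higher. The sham mean that sets the class is also the denominator of the fold, so some of this order can come from the grouping itself. Fold and level are therefore given side by side below.

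**Figure D2:**
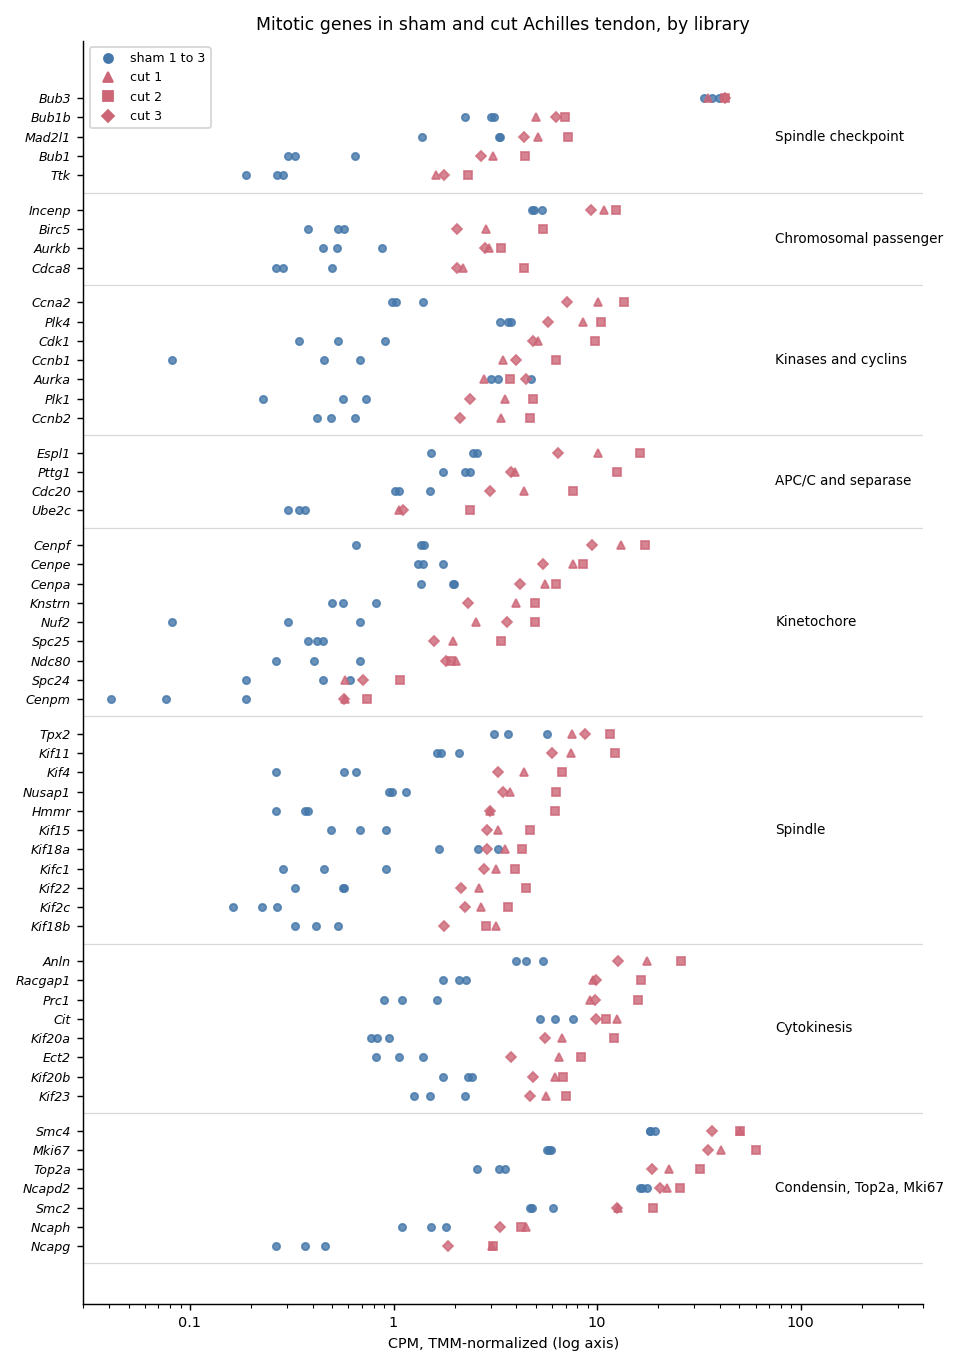
TMM-normalized CPM of each of the 55 mitotic genes (rows, grouped by role) in every library (points; log x axis), sham and cut tendon in different colours. The groups do not overlap for 51 genes and overlap for Bub3, Aurka, Spc24 and Kif18a.

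The proliferation marker Mki67, which coats mitotic chromosomes, and the decatenating enzyme Top2a showed the size of the change at a level well above the counting floor. Mki67 (chr7:135689784-135716450, minus strand) held 5.80, 5.68 and 5.92 CPM in sham 1 to 3 and 40.7, 60.1 and 35 CPM in cut 1 to 3. The sham values differed little among themselves, and the lowest cut library stood far above them, with a log2 fold change of 2.96 ± 0.23 (SE, n = 3 per group; edgeR, adjusted p = 0.00272). Top2a (chr11:98992947-99024199, minus strand) gave 2.57, 3.29 and 3.51 CPM in sham and 22.6, 31.9 and 18.6 CPM in cut libraries, again with no overlap and with the same fold (2.96 ± 0.25, adjusted p = 0.00313). An annotated small nucleolar RNA gene lies on the same strand within 1.35% of the Top2a exon bases.

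Condensin, the ring complex that compacts mitotic chromosomes, is represented by 5 subunits in this set, and all 5 rose, by log2 0.43 to 2.85. With Mki67 and Top2a, 7 of 7 chromosome genes were higher (median log2 1.5). Smc4, an ATPase subunit shared by both condensins, held 19.2, 18.2 and 18.3 CPM in sham and 50.3, 50.3 and 36.5 CPM in cut libraries (1.30 ± 0.15, adjusted p = 0.00446, edgeR). Its partner Smc2 rose by 1.5 ± 0.22. Of the condensin I subunits, Ncapg rose by 2.85 ± 0.35 and Ncaph by 1.43 ± 0.26, the latter not called with a muscle covariate (1.17). Ncapd2 had the smallest called change of the whole set, from 16.7, 16.3 and 17.6 CPM to 22, 25.5 and 20.4 CPM (0.43 ± 0.13, adjusted p = 0.0427). Its groups did not overlap, yet its call was lost under more alternatives than any other of the 49. It was lost without sham 1 (0.42), sham 2 (0.38), sham 3 (0.42), cut 1 (0.45) or cut 2 (0.33), and with the replicate number as a block (0.42). It was also lost with DESeq2 size factors (0.42), no filter (0.40), log2(FPKM + 1) (0.34), log2(FPKM + 0.1) (0.41) and the muscle covariate (0.24). A small Cajal body RNA gene, Scarna10, shares 3.78% of the Ncapd2 exon bases on the same strand.

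The kinases and cyclins that drive entry into mitosis rose together, except for Aurka. Of 7, 6 were higher and 1 was not called (median log2 2.81). Ccna2, cyclin A2, held 0.981, 1.40 and 1.03 CPM in sham and 10.1, 13.5 and 7.15 CPM in cut libraries (3.16 ± 0.31, adjusted p = 0.00333, edgeR). Ccnb1, cyclin B1, gave 0.0817, 0.454 and 0.687 CPM in sham, which are 2, 12 and 18 counts, and 3.45, 6.31 and 3.99 CPM in cut libraries. The sham libraries varied widely for this gene, but all lay below the cut ones (3.46 ± 0.59, adjusted p = 0.00968), and the call was lost without sham 2 (3.52). Pseudogenes of Ccnb1 that are over 95% identical exist in a reference annotation, but none is listed in the deposited tables. How reads matching both Ccnb1 and a pseudogene were handled is not known. Cdk1, the kinase that both cyclins activate, rose from 0.531, 0.909 and 0.344 CPM to 5.12, 9.72 and 4.83 CPM (3.45 ± 0.46). Cyclin B2, Ccnb2, rose by 2.70 ± 0.38, and Plk1, a kinase with roles from centrosome maturation to cytokinesis, by 2.81 ± 0.47.

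Plk4 and Aurka, both centrosomal kinases, had higher levels per length in sham tendon (0.867 and 1.78 FPKM) than the other 5 genes (0.173 to 0.338 FPKM), and smaller changes. FPKM are fragments per kilobase of gene, scaled by library total, as deposited. Plk4, which starts centriole duplication, held 3.76, 3.63 and 3.32 CPM in sham and 8.51, 10.4 and 5.74 CPM in cut libraries (1.20 ± 0.25, adjusted p = 0.0153, edgeR). Its call was lost without sham 1 (1.24), sham 2 (1.19), sham 3 (1.12) or cut 1 (1.18), and with the muscle covariate (0.61). Aurka (chr2:172356190-172370886, minus strand), which works at the spindle poles, held 3.27, 3.03 and 4.73 CPM in sham and 2.77, 3.75 and 4.46 CPM in cut libraries. The 2 groups covered the same range, and the log2 difference of -0.01 ± 0.27 had a 95% interval from -0.66 to 0.64 (adjusted p = 0.985). Its sign turned under 4 alternatives, with values up to 0.24. Tpx2, which activates Aurka on spindle microtubules, did change: it rose from 3.11, 3.63 and 5.69 CPM to 7.54, 11.5 and 8.76 CPM (1.16 ± 0.29, adjusted p = 0.0261). The Tpx2 call was lost without sham 1 (0.99), sham 2 (1.06) or cut 2 (0.97), and with the muscle covariate (0.99). The Aurka promoter window held CHR letters at 33 and CCAAT letters at -51 and -19, as do windows of genes that rose. That window lay inside the annotated span of Aurka, so a start further upstream was not searched.

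All 4 genes of the chromosomal passenger complex rose (median log2 2.53), and none lost its call under any alternative. Aurkb, its kinase, held 0.449, 0.530 and 0.878 CPM in sham and 2.93, 3.37 and 2.82 CPM in cut libraries (2.29 ± 0.31, adjusted p = 0.00571, edgeR). Cdca8, borealin, rose the most, from 0.286, 0.265 and 0.496 CPM to 2.19, 4.39 and 2.05 CPM (3.02 ± 0.46, adjusted p = 0.00694). Birc5, survivin, rose by 2.78 ± 0.45. Incenp, the scaffold that holds the complex together, began at a higher level per length (1.52 FPKM in sham, against 0.144 to 0.282 FPKM for the others) and changed less, from 4.78, 4.92 and 5.38 CPM to 10.9, 12.5 and 9.33 CPM (1.11 ± 0.17, adjusted p = 0.00681). No sham library reached the lowest cut library for any of the 4.

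The spindle checkpoint genes divided: Bub1, Bub1b and Ttk were higher, and Bub3 and Mad2l1 were not called (median log2 of the 5 genes 1.12). Bub1, a kinase at unattached kinetochores, rose from 0.327, 0.303 and 0.649 CPM to 3.09, 4.42 and 2.68 CPM (2.98 ± 0.39, adjusted p = 0.00538, edgeR). Ttk, the kinase MPS1 that starts checkpoint signalling, rose by 2.93 ± 0.33. Bub1b, which codes for the APC/C inhibitor BUBR1, rose less, from 3.02, 3.10 and 2.25 CPM to 5.03, 6.99 and 6.27 CPM (1.12 ± 0.22, adjusted p = 0.0132). Leaving out sham 2 (1.19) or sham 3 (0.96) ended its call. Mad2l1, another part of the inhibitor complex, held 3.35, 3.29 and 1.37 CPM in sham and 5.12, 7.22 and 4.40 CPM in cut libraries. Its groups did not overlap but the sham libraries spread widely (1.06 ± 0.38, 95% interval 0.14 to 1.98, adjusted p = 0.0742). It was called without cut 3 (1.21), by DESeq2 (1.07), and with the replicate block (1.12).

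Bub3 (chr7:131560367-131571895, plus strand), which docks the checkpoint kinases at kinetochores, had the highest level per length of all 55 genes. It stood at 16.7 ± 0.960 FPKM (SD, n = 3) in sham and 18.3 ± 0.647 FPKM in cut tendon. Its partner Bub1 stood at 0.0973 FPKM in sham and 0.783 FPKM in cut tendon. In CPM Bub3 held 33.4, 36.6 and 39.7 in sham and 35.2, 42.7 and 42.3 in cut libraries, which overlapped. The log2 difference was 0.13 ± 0.13, with a 95% interval from -0.18 to 0.44 (edgeR, adjusted p = 0.443), so that a 2-fold change lay outside it.

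**Figure D3:**
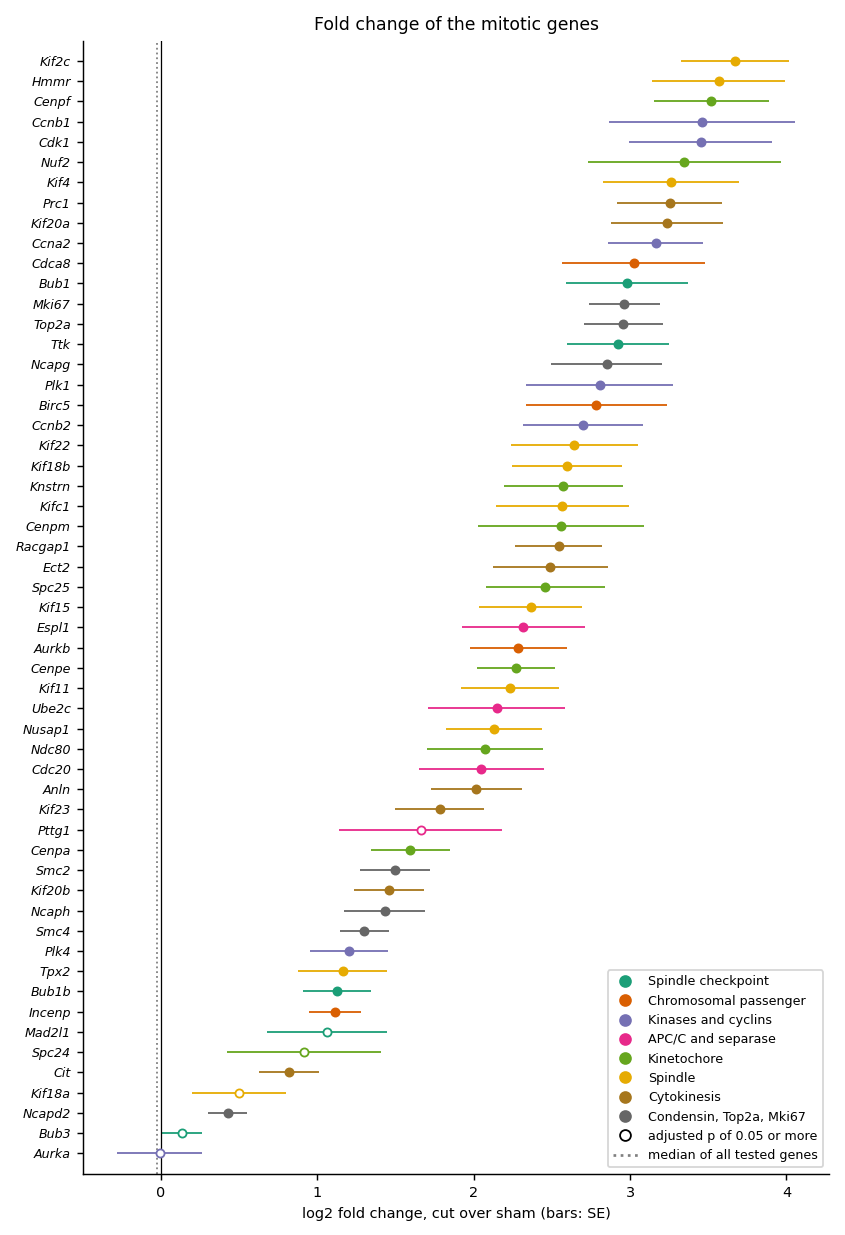
Log2 fold change of cut over sham (x axis; bars, SE) for the 55 mitotic genes (rows, in order of fold change; colours, roles), with filled points for genes called by edgeR and a dotted line at the median of all tested genes. The 6 genes not called are Bub3, Mad2l1, Aurka, Pttg1, Spc24 and Kif18a, and Kif2c is the highest at 3.67.

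Genes of the step from metaphase to anaphase were higher for 3 of 4, and the fourth missed the threshold narrowly (median log2 2.10). Espl1, separase, the protease that cuts cohesin, rose from 2.57, 2.46 and 1.53 CPM to 10.2, 16.2 and 6.44 CPM (2.32 ± 0.39, adjusted p = 0.00946, edgeR). Pttg1, securin, its inhibitor, held 1.76, 2.39 and 2.25 CPM in sham, 3.96 and 3.76 CPM in cut 1 and 3, and 12.6 CPM in cut 2. The groups did not overlap, but cut 2 stood far above the others and the change was not called (1.66 ± 0.52, 95% interval 0.41 to 2.91, adjusted p = 0.0508). Pttg1 was called without cut 3 (1.95), with upper quartile scaling (1.72), by DESeq2 (1.67) and with the replicate block (1.45). Cdc20, the activator of the APC/C that the checkpoint holds back, rose from 1.02, 1.51 and 1.07 CPM to 4.38, 7.59 and 2.99 CPM (2.05 ± 0.40, adjusted p = 0.0134). That call was lost without sham 1 (1.94) or sham 3 (1.93) and with the muscle covariate (1.13). Ube2c, the ubiquitin-conjugating enzyme of the APC/C, rose from 0.368, 0.303 and 0.344 CPM to 1.06, 2.36 and 1.11 CPM (2.15 ± 0.44, edgeR, adjusted p = 0.0149). The Ube2c call was lost without sham 1 (2.21), sham 2 (2.05) or sham 3 (2.12), and with the muscle covariate (1.48). The muscle gene Tnnc2 shares 22.8% of the Ube2c exon bases on the other strand, and held 668, 621 and 922 CPM in sham, 49.9 and 24 CPM in cut 1 and 2, and 708 CPM in cut 3. Whether reads of the 2 genes were mixed was not tested.

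Of 9 kinetochore genes, 8 were higher and Spc24 was not called (median log2 2.46). Cenpf, a large outer kinetochore protein, rose the most, from 0.654, 1.36 and 1.41 CPM to 13.1, 17.1 and 9.43 CPM (3.52 ± 0.37, adjusted p = 0.00384, edgeR). Cenpa, the histone H3 variant that marks centromeres, rose from 1.96, 1.36 and 1.99 CPM to 5.58, 6.28 and 4.19 CPM (1.59 ± 0.25, adjusted p = 0.00779). Cenpe, a kinetochore motor, rose by 2.27 ± 0.25 and Knstrn, a kinetochore adaptor, by 2.57 ± 0.38. Cenpm, of the inner kinetochore network, had the lowest level of all in cut tendon (0.333 ± 0.0459 FPKM), with 1, 5 and 2 counts in sham and 18, 22 and 17 counts in cut libraries. Its change of 2.56 ± 0.53 was called (adjusted p = 0.0156), but not without sham 1 (2.21) or sham 3 (2.35), nor with the muscle covariate (2.33).

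The NDC80 complex, the main microtubule coupler of the kinetochore, is made of 4 proteins, and its genes differed in their counts. Nuf2 rose from 0.0817, 0.303 and 0.687 CPM, or 2, 8 and 18 counts, to 2.55, 4.96 and 3.62 CPM (3.35 ± 0.62, adjusted p = 0.0115, edgeR). That call was lost without sham 2 (3.22). Spc25 rose from 0.449, 0.379 and 0.420 CPM to 1.97, 3.37 and 1.58 CPM (2.46 ± 0.38, adjusted p = 0.00748), and Ndc80 by 2.07 ± 0.37. Spc24, the partner of Spc25 in the complex, held 0.449, 0.189 and 0.611 CPM in sham and 0.580, 1.08 and 0.705 CPM in cut libraries. Here sham 3 lay above cut 1, and the difference of 0.91 ± 0.49 was not called (95% interval -0.27 to 2.09, adjusted p = 0.184). At 5 to 32 counts per library this interval still held the change seen for Ndc80. In cut tendon the levels per length were 0.878 ± 0.116 FPKM for Ndc80, 1.48 ± 0.412 for Nuf2, 1.25 ± 0.481 for Spc25 and 0.517 ± 0.150 for Spc24 (SD, n = 3).

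Among 11 spindle motors and microtubule proteins, 10 were higher and Kif18a was not called (median log2 2.57). Kif2c (chr4:117159633-117182624, minus strand), the depolymerase MCAK that corrects attachments, had the largest change of the 55 genes. It went from 0.163, 0.227 and 0.267 CPM, or 4, 6 and 7 counts, to 2.68, 3.64 and 2.25 CPM (3.67 ± 0.35, adjusted p = 0.00332, edgeR). Kif11, the motor Eg5 that pushes the spindle poles apart, rose from 1.72, 1.63 and 2.10 CPM to 7.41, 12.3 and 6.01 CPM (2.23 ± 0.31, adjusted p = 0.00609). Hmmr, a spindle pole protein that is also known as a hyaluronan receptor, rose by 3.57 ± 0.42, and the chromosome motor gene Kif4 by 3.26 ± 0.43. The other 5 called motors and bundling proteins, Kif22, Kif18b, Kifc1, Kif15 and Nusap1, rose by 2.64, 2.60, 2.57, 2.36 and 2.13 on the log2 scale. Kifc1 has a near-identical copy, Kifc5b (96.8% identity over 2312 bases), which held 0.613, 0.681 and 1.26 CPM in sham and 1.10, 1.45 and 0.872 CPM in cut libraries and was not called (0.42 ± 0.39). How shared reads were divided between these copies is uncertain.

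The 2 kinesin-8 genes were called differently. Kif18a, which damps chromosome oscillation, held 3.27, 2.61 and 1.68 CPM in sham and 3.51, 4.29 and 2.89 CPM in cut libraries. Sham 1 lay above cut 3, and the difference of 0.50 ± 0.30 was not called (95% interval -0.22 to 1.22, edgeR, adjusted p = 0.226). Kif18b rose from 0.327, 0.416 and 0.535 CPM to 3.19, 2.83 and 1.78 CPM (2.60 ± 0.35), an estimate outside the Kif18a interval. The difference between the 2 changes was not tested.

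All 8 cytokinesis genes rose (median log2 2.25), and each passed the filter on its sham levels alone. Prc1, which bundles the microtubules of the central spindle, rose from 0.899, 1.10 and 1.64 CPM to 9.25, 15.9 and 9.76 CPM (3.25 ± 0.34, adjusted p = 0.00373, edgeR). Racgap1, a subunit of centralspindlin, rose from 1.76, 2.27 and 2.10 CPM to 9.51, 16.5 and 9.83 CPM (2.54 ± 0.28, adjusted p = 0.00387). Anln, anillin, the scaffold of the contractile ring, rose from 5.39, 4.01 and 4.47 CPM to 17.6, 25.9 and 12.6 CPM (2.02 ± 0.29, adjusted p = 0.00635). No sham value of these 3 genes came near a cut value. Kif20a rose by 3.24 ± 0.36, although 29.3% of its exon bases are shared with Cdc23 on the other strand, whose own change was not called (0.29 ± 0.11). Ect2, which activates RhoA at the cell equator, rose by 2.49 ± 0.37, Kif23, the centralspindlin motor, by 1.78 ± 0.29, and Kif20b by 1.46 ± 0.22. Cit, citron kinase, had the smallest change of the group, from 6.21, 5.22 and 7.60 CPM to 12.5, 11.1 and 9.90 CPM (0.82 ± 0.19, adjusted p = 0.0224). Its call was lost without sham 1 (0.80), sham 2 (0.67), cut 1 (0.73) or cut 2 (0.83), and with the muscle covariate (0.68).

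The cut libraries kept a common order across the set. The summed level of the 55 genes was 149.8, 154.8 and 164.3 CPM in sham 1 to 3 and 437 CPM in cut 1, 594 in cut 2 and 377 in cut 3. The median gene stood 4.73-fold above the sham mean in cut 1, 6.99-fold in cut 2 and 3.79-fold in cut 3. Cut 2 was the highest cut library for 49 of the 55 genes, and cut 3 the lowest for 43. The ratio of cut 2 to cut 3 had a median of 1.64 and exceeded 1 for 54 genes, with a range from 0.839 to 3.34. Above every sham library stood 52 genes in cut 1, 54 in cut 2 and 53 in cut 3. Cut 2 had the lowest and cut 3 the highest muscle marker sum of the cut libraries. The order was not particular to these genes. The main axis of variation over all tested genes (80.4% of the variance) placed cut 1 to 3 at 81.6, 110.8 and 9.57. Tendon marker sums were 77529, 110592 and 43161 CPM in cut 1 to 3, and cartilage sums 9491, 11253 and 2574 CPM. Some other marker lists did not follow, such as macrophage markers at 1215, 1017 and 1299.5 CPM.

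**Figure D4:**
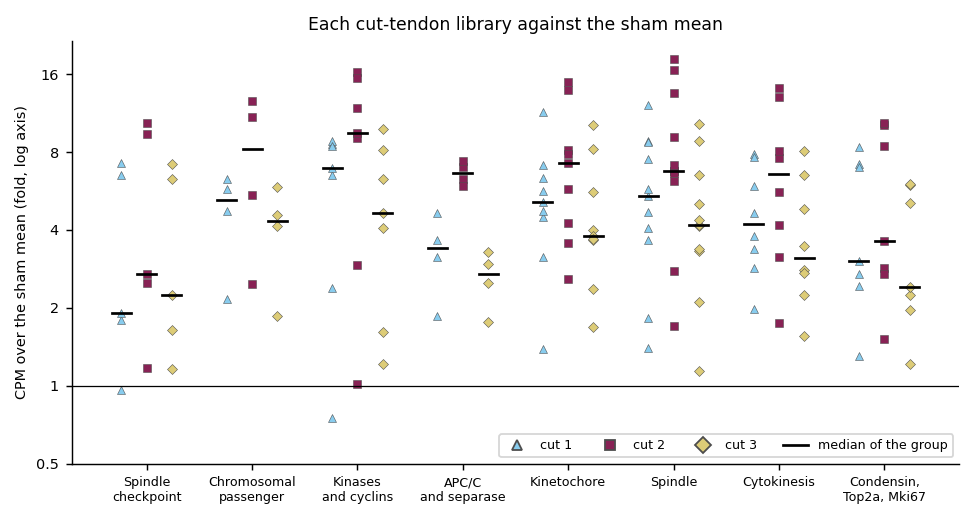
CPM of each mitotic gene in cut 1, 2 and 3 divided by its sham mean (y axis, log scale), grouped by role (x axis), one point per gene and library, with bars at the median of each role group. Over all 55 genes the median folds were 4.73 in cut 1, 6.99 in cut 2 and 3.79 in cut 3.

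The number of higher genes moved with the library left out, as did the share of all tested genes called higher. It was 42, 41 and 43 without sham 1, 2 and 3 (against 10.6%, 7.39% and 9.19% of all tested genes), and 46, 46 and 51 without cut 1, 2 and 3 (10.8%, 12.6% and 28.5%). Without cut 3, whose muscle markers were near the sham level, the median log2 fold change was 2.59. With the muscle marker level as a covariate 41 genes were called higher (median 1.83), against 10.3% of all tested genes. That level was 164951 to 188941 CPM in sham, 12352 and 4512 CPM in cut 1 and 2, and 134630 CPM in cut 3. The covariate therefore went largely with the groups, and its calls and folds are not values freed of muscle content. With muscle genes left out of the library sizes 49 were called higher (19.4%). The other scalings and filters gave 48 with DESeq2 size factors (19.6%), 50 with upper quartile scaling (21.1%) and 49 with at least 10 counts in a whole group (20.8%). By other tools, 51 were higher in DESeq2 (21.7%), 49 in limma-voom (20%), and 48 in limma on log2(FPKM + 1) and log2(FPKM + 0.1) (18.2% and 18.3%). The fit with the replicate block gave 50 (21.7%). Across the 17 alternatives, 38 genes kept their higher call in every one, and 0 genes were called lower in any. The other 11 called genes each lost the call in at least 1 alternative and are named above with their values. Exon bases shared with a gene of the other strand came to 11.1% of Prc1 (with Rccd1), 12.5% of Ccna2 (Exosc9), 13.4% of Ncapg (Lcorl) and 15.1% of Kif4 (Pdzd11). Of these partners Pdzd11 was called higher, at 0.55 ± 0.15, and the other 3 were not called.

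Markers of several other cell types moved with the groups. Their calls are to be read beside the 20.4% of all tested genes called higher and the 12.3% called lower. Macrophage markers were higher for 9 of 10 tested genes, with sums of 340 to 460 CPM in sham and 1017 to 1299.5 CPM in cut libraries. The remaining macrophage marker, Cd163, went the other way, from 35.9, 56.5 and 55.8 CPM in sham to 29.1, 7.26 and 25.7 CPM in cut libraries. It was lower in all cut libraries but not called (-1.26 ± 0.50, edgeR, adjusted p = 0.0947). Cartilage markers were higher for 10 of 10 tested, with sums of 87.4 to 192 CPM in sham and 2574 to 11253 CPM in cut libraries, and tendon markers for 4 of 8, with sums of 5962 to 14147 CPM and 43161 to 110592 CPM. T cell markers were higher for 3 of 6 tested (2.2 to 2.7 CPM in sham, 11.3 to 18 CPM in cut libraries), B and plasma cell markers for 3 of 4 (3.4 to 4.2 and 9.4 to 18.8 CPM), and osteoclast markers for 4 of 7 (188 to 202 and 536 to 989 CPM). Adipocyte markers were lower for 8 of 8 (1377 to 2204 and 306 to 590 CPM) and endothelial markers for 6 of 10 (1068 to 1236 and 553 to 842 CPM). The part of each of these cell types in the change of the mitotic genes was not tested. Markers of blood-forming marrow, a tissue rich in dividing cells, were also read. Erythroid markers were higher for 0 of 10 tested genes and lower for 1 (281 to 721 CPM in sham and 169 to 381 CPM in cut libraries), with the erythroid factor Klf1 and the blood group gene Rhag under 10 counts in every library. Of the 7 tested stem and progenitor markers 0 were higher and 2, Gata2 and Myb, were lower (234 to 270 and 269 to 330 CPM). Neutrophil markers were higher for 0 of 3 tested (3.1 to 7.8 and 2.5 to 5.9 CPM) and keratinocyte markers for 0 of 6 (10.3 to 17.4 and 5.9 to 17.7 CPM).

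Other genes of the same machinery were listed for comparison, and of 120 tested, 48 were higher and 2 lower, with a median log2 fold change of 0.46. Their higher calls numbered 28 without sham 2 and 29 without sham 3, and 28 with the muscle covariate, where 7.39%, 9.19% and 10.3% of all tested genes were called higher, against 20.4% with all libraries and no covariate. Spindle and centrosome genes were higher for 26 of 38 (median 1.73), and other kinetochore genes for 16 of 34 (median 0.80). For 24 of the 120, among them 13 of these spindle and 10 of these kinetochore genes, not all 3 sham libraries reached the filter cutoff. For these 24, passing depended in part on the cut libraries. Depdc1a had the largest change of these lists, at 4.82 ± 0.53, from 0.0409, 0.0379 and 0.115 CPM to 1.87, 2.63 and 1.34 CPM. Its sham values all lay under the cutoff of 0.36 CPM. The most abundant spindle genes did not follow: Numa1, which anchors microtubules at the poles, went from 193, 185 and 164 CPM to 167, 160 and 155 CPM (-0.17 ± 0.14, edgeR, adjusted p = 0.358), and Ckap5, a microtubule polymerase, had a log2 difference of -0.14 ± 0.13 (adjusted p = 0.409). Among kinetochore genes the most abundant were Zwint, at 40.6, 40.6 and 48.0 CPM in sham and 31.6, 28.4 and 39.0 CPM in cut libraries, and Hjurp, the loader of CENP-A. Zwint lay lower in all cut libraries but was not called (-0.38 ± 0.16, adjusted p = 0.0981), except without cut 3 (-0.52) and with the replicate block (-0.39). Hjurp overlapped between groups (0.34 ± 0.21, adjusted p = 0.239) and was called higher without cut 3 (0.52).

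Cohesin, the APC/C and condensin II also work outside mitosis, and their calls are to be read beside the 20.4% of all tested genes called higher. Of 10 cohesin genes, which hold sister chromatids together and shape chromatin in resting cells, only Cdca5, sororin, was called higher (2.94 ± 0.39), and the list's median was 0.01. Rad21, the cohesin subunit cut by separase, held 81.4, 87.1 and 85.6 CPM in sham and 89.4, 95 and 90.8 CPM in cut libraries (0.11 ± 0.11, adjusted p = 0.420, edgeR). Wapl, which releases cohesin from DNA, was lower in all cut libraries but among the fits run was called only without cut 3 (-0.29 ± 0.12 with all libraries, adjusted p = 0.107, and -0.36 without cut 3). Among 17 APC/C genes, Cdc16 (0.65 ± 0.14) and Anapc2 (0.53 ± 0.14) were called higher (median 0.09). Its most abundant subunits were not: Anapc5 had a log2 difference of 0.04 ± 0.26 (adjusted p = 0.914) and Anapc13 one of -0.53 ± 0.32 (adjusted p = 0.231). Anapc13 was called lower without cut 3 (-0.96). Of the 3 condensin II subunits, Ncapg2 rose by 1.0 ± 0.19, while Ncapd3 (-0.22 ± 0.11, adjusted p = 0.149) and Ncaph2 (-0.11 ± 0.13, adjusted p = 0.531) were not called.

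Of 18 regulators that transcribe or silence mitotic genes, 2 were higher and 2 lower (median 0.30), against 20.4% and 12.3% of all tested genes. Foxm1, which activates genes of late cell cycle with MuvB, rose from 1.18, 2.69 and 1.76 CPM to 7.51, 11.3 and 5.70 CPM (2.12 ± 0.38, adjusted p = 0.0112, edgeR), and was not called without sham 3 (2.03). E2f1, an activator of genes for DNA synthesis, rose from 1.72, 1.86 and 1.57 CPM to 5.90, 8.47 and 6.88 CPM (2.05 ± 0.21, adjusted p = 0.00355). Mybl2, the other MuvB partner in proliferating cells, held 1.18, 0.833 and 1.30 CPM in sham, 2.22 and 2.36 CPM in cut 1 and 2, and 0.805 CPM in cut 3. The low value of cut 3 lay below every sham library, and among the fits run Mybl2 was called only without it (0.70 ± 0.45 with all libraries, adjusted p = 0.257, and 1.05 without cut 3).

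The 2 lower regulators were Lin52 and Tfdp2. Lin52, a MuvB core subunit, fell from 12.3, 12.3 and 12.9 CPM to 5.96, 5.70 and 9.60 CPM (-0.82 ± 0.23, adjusted p = 0.0372, edgeR), and Tfdp2, a partner of E2F factors, from 63.3, 70.4 and 80.9 CPM to 37.2, 31.8 and 56.4 CPM (-0.77 ± 0.23, adjusted p = 0.0467). For both, cut 3, the library richest in muscle markers among the cut ones, was closest to sham. Neither call held without sham 1, sham 2, sham 3, cut 1 or cut 2, with values from -0.85 to -0.69 for Lin52 and from -0.86 to -0.62 for Tfdp2. With the muscle covariate both were also lost (-0.35 and -0.27). Without cut 3 a total of 9 of the 120 related genes were lower (29.7% of all tested genes), and 4 with the replicate block (17.3%). The most abundant regulators, Rbbp4, a histone chaperone of MuvB (0.20 ± 0.11, adjusted p = 0.182), and Rbl2, the pocket protein p130 of resting cells (-0.10 ± 0.12, adjusted p = 0.519), were not called.

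**Figure D5:**
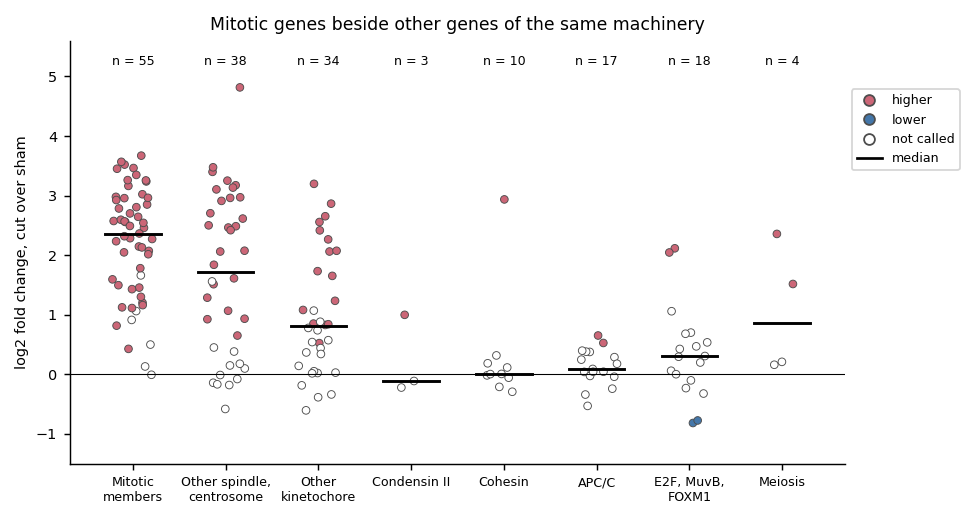
Log2 fold change of cut over sham (y axis) for the 55 mitotic genes and for tested genes of 7 lists of related function (x axis), with filled points for genes called by edgeR and bars at the medians. Medians run from 2.36 in the mitotic genes and 1.73 in other spindle genes to 0.09 in the APC/C, 0.01 in cohesin and -0.11 in condensin II.

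Called and not-called mitotic genes both occurred with and without the CHR letters described above. Of the 36 genes with CHR letters, 34 were higher (median log2 2.55), and Aurka and Bub3 were not called. Of the 12 without, 9 were higher (median 1.90), and Kif18a, Mad2l1 and Pttg1 were not called. Ccnb1 and Nuf2 had no match to the searched CHR forms in their windows and rose by 3.46 and 3.35 on the log2 scale. Of the 10 genes with neither motif, 7 were higher (median 1.55). Pttg1 and Cit, whose windows lay inside the gene, are among these 10. These groups of genes were not compared by a test.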

How the data were processed

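Per the labels' protocols, RNA came from the mirVana kit and strand-specific, ribosome-depleted libraries from the TruSeq Stranded Total RNA kit (Ribo-Zero Gold). Trimmomatic, HISAT2 and GRCm38.p6 are named in the submitters' processing notes, without versions. The counting program and its strand setting are not given in the sources used here. Reads from overlapping genes of either strand may therefore be mixed. The deposited table of whole read counts per gene was not normalized. The deposited FPKM were those counts divided by gene length and library total. This was checked: implied lengths were whole, within 0.01 bases, for 100% of 15164 genes.

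Counts were fitted in R 4.3.3 with edgeR 4.0.16 (filterByExpr, TMM, quasi-likelihood test, Benjamini-Hochberg adjustment over 14561 tested genes). SE is |log2 fold change| over the root of the F statistic, and 95% intervals use the t distribution with the fit's total degrees of freedom. Of 21878 genes 4031 had no counts. Same-numbered sham and cut libraries deviated together (correlations 0.26, 0.13 and 0.41), and a fit with the replicate number as a block was run as an alternative. The labels state no pairing, and some unlike numbers also correlated (sham 1 with cut 2 at 0.24, sham 2 with cut 1 at 0.11). These correlations therefore do not establish that the libraries were paired. The closest libraries, sham 1 and 2, had a chi-square of 15.0 per gene and so were no duplicates. On simulated data of 14561 genes, with 100 changed at each fold, 97% of genes changed 8-fold and 10% of those changed 2-fold were called. Of the unchanged genes 9 were called. Far fewer genes changed there than the 2968 called higher and 1789 called lower in the real data. The adjustment was therefore stricter, and these shares do not carry over to the real data.

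Alternatives were DESeq2 1.42.0 size factors, upper quartile scaling, muscle markers left out of library sizes, DESeq2's Wald test, limma-voom (limma 3.58.1), no filter, a filter of 10 counts in a whole group, limma on log2(FPKM + 1) and log2(FPKM + 0.1), each library left out, the replicate block, and the muscle marker level as a covariate. Of 55 genes, 15 share exon bases with another gene, 2 on the same strand, and 6 have a copy at 95% identity or more over at least 200 bases.

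The genes and lists were chosen with earlier results of these data known. Named with values by sample were, in each role, the 3 genes of highest mean FPKM and the largest fold, all genes not called, Mki67 and Top2a, and, of each related list, the 2 genes of highest mean FPKM and those called lower, with Foxm1 and Mybl2. Others, such as Cdk1, Cenpm, Cit, Kif18b, Depdc1a and E2f1, were picked after their values were seen.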

Additional observations from a re-analysis of the deposited data

How the results depend on the processing

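Of the 55 mitotic genes, 41 to 51 were called higher when 1 library was left out and 0 were called lower. Of 935 alternative values over 17 settings, 884 kept direction and call, 40 from 11 genes lost the call, 7 gained one and 4 changed sign. Fits without a library called 1091 to 4212 of all genes higher, against 2968 with all 6. Related genes called higher, 48 with all libraries, numbered 28 to 60 with a library left out and 28 with the muscle covariate. Those called lower, 2 with all libraries, numbered 0 to 9 with a library left out, 4 with the replicate block and 0 with the muscle covariate. Among named genes the replicate block changed only the calls of Mad2l1 (1.12), Pttg1 (1.45), Ncapd2 (0.42) and Zwint (-0.39). Signs turned only for genes not called. Aurka ranged from -0.17 to 0.18 with a library left out, and was at 0.037 with upper quartile scaling and 0.24 with the muscle covariate. Anapc5 was at -0.0081 in limma-voom, -0.00709 and -0.00747 on log2(FPKM + 1) and log2(FPKM + 0.1), -0.27 to 0.22 with a library left out and -0.010 with the replicate block. With the muscle covariate Anapc13 was at 0.053, Ckap5 at 0.0084, Hjurp at -0.13, Mybl2 at -0.47, Ncaph2 at 0.082 and Rbl2 at 0.031. The cause of these shifts was not tested. On log2(FPKM + 1) the median of the mitotic genes was 0.87, since the pseudocount shrinks the folds of low genes. Folds of genes with under 20 counts in each sham library, such as Kif2c, Nuf2 and Cenpm, rest on few reads. Changes near 2-fold were called for Incenp (1.11) and Bub1b (1.12) but not for Mad2l1 (1.06). How often such changes are missed in these data was not settled by the simulation.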

Other observations

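Meiotic genes, which work in germ cells, were mostly too low to test: of 14 listed, 4 passed the filter. For 2 of these 4, not all sham libraries reached its cutoff, so passing depended in part on the cut libraries. Syce2, of the synaptonemal complex, held 0.327, 0.227 and 0.496 CPM in sham and 1.90, 2.36 and 1.17 CPM in cut libraries (2.36 ± 0.43, edgeR with Benjamini-Hochberg adjustment, adjusted p = 0.0109). Stag3, a meiotic cohesin subunit, went from 1.39, 0.946 and 0.496 CPM to 2.48, 3.41 and 2.21 CPM (1.52 ± 0.40, adjusted p = 0.0319). For both genes the lowest cut library lay above the highest sham library. Sycp2 (0.16 ± 0.43) and Dmc1 (0.21 ± 0.57) overlapped between the groups and were not called.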
